A study of Mus musculus with 26 samples.

Results

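The genes described here encode the secreted and membrane-bound metalloproteinases that cut extracellular matrix, together with their inhibitors and close relatives. They were chosen by symbol alone: every gene row named Mmp, Adamts or Timp with a number, or Adamtsl with a number, was taken, which gave 51 of the 41442 rows of each count table. The 51 comprised 23 Mmp genes, 19 Adamts genes, 5 Adamtsl genes and 4 Timp genes. RNA-seq had been done on 18 libraries of sorted mouse cells that carried a red fluorescent reporter (Rosa-Tomato), in 6 groups of 3. In 4 of the groups the reporter was switched on by Gli1-CreER, a recombinase made where the hedgehog target Gli1 is expressed and active only after tamoxifen; these were Gli1+ cells from the mesonephros of female and of male embryos at E14.5 and at E16.5. The other groups were Gli1+ cells (Gli1-CreER) and Amhr2+ cells (Amhr2-Cre) from the neonatal uterus at E19.5. Dams of all groups received 1 mg of tamoxifen on E12.5 and on E13.5, so the Gli1+ cells are those labelled around that time and their descendants, whatever they express when sorted. Amhr2-Cre needs no tamoxifen and marks cells in which the receptor gene of anti-Müllerian hormone has been active. The labels name no strain, and do not say whether a library came from 1 embryo or several or whether replicates came from separate litters, so p-values measure the spread between these libraries, which may in part be technical.

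Matrix metalloproteinases (Mmp) cleave collagens, gelatin and other matrix proteins; some are secreted as inactive precursors and some are anchored in the cell membrane. The Adamts enzymes are secreted, and fall by substrate into proteoglycan-cleaving members, procollagen N-proteinases, a protease of von Willebrand factor and members linked to fibrillin microfibrils, while Adamtsl proteins share their matrix-binding parts but have no protease domain. Tissue inhibitors of metalloproteinases (Timp) block the active site, and Timp3, which stays bound to the matrix, also blocks several Adamts and Adam enzymes. In the male embryo the Müllerian duct regresses while the Wolffian duct is kept, in the female the reverse happens, and matrix remodelling by Mmp2 in the mesenchyme around the Müllerian duct has been linked to that regression.

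The fetal libraries held 23382983 to 64602477 counts each, the uterine ones 28709191 to 37541045. At these depths 3 counts, taken as the floor of detection, equal 0.0464 to 0.128 CPM, the count scaled to a common library size. Mean Gli1 was 184 and 228 CPM in E14.5 females and males, 50.7 and 208 CPM at E16.5, and 10.5 and 17.9 CPM in uterine Amhr2+ and Gli1+ cells. Amhr2 averaged 11.1 CPM in Amhr2+ and 4.10 CPM in Gli1+ uterine cells. All 6 mesenchyme markers (Pdgfra, Pdgfrb, Col1a1, Col3a1, Twist1 and Vim) were found in all groups, with a summed level of 21100 to 44200 CPM per library. A single library stood apart in red-cell RNA: E14.5 female replicate 3 held Hbb-y, an embryonic globin, at 781 CPM, and its erythroid markers summed to 934 CPM. In data of this kind fewer cells of a type and less RNA per cell cannot be told apart.

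Most members were either clearly expressed or close to absent. At least 100 CPM on average was reached by 11 members in E14.5 females and in E14.5 males, 13 and 15 in E16.5 females and males, 10 in uterine Amhr2+ cells and 14 in uterine Gli1+ cells. In contrast, 14 members stayed under 1 CPM in every group, with no library above 17 counts: Adamts13, Timp4, Mmp21, Mmp24 and the 10 genes of the Mmp cluster on chromosome 9 (7272514 to 7699585 on mm10, the mouse genome build of the files). That cluster holds the interstitial collagenases Mmp1a, Mmp1b, Mmp8 and Mmp13, the stromelysins Mmp3 and Mmp10, the matrilysin Mmp7, the macrophage elastase Mmp12, the enamel protease Mmp20, and Mmp27. Its highest group mean was 0.376 CPM, of Mmp3 in uterine Gli1+ cells, where the libraries held 0.179, 0.526 and 0.422 CPM. Mmp13 had 0 counts in all 3 libraries of E14.5 females and reached no more than 4 counts in any library.

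Per kilobase of exon, the scale on which genes of different length can be compared, Mmp2 led in all 6 groups. Mmp2 (chromosome 8, 92827291 to 92853420), gelatinase A, reached 273 ± 5.67 CPM per kb (SD, n = 3) in E14.5 females and 191 ± 15.5 in uterine Gli1+ cells, the highest and lowest of the 6 group means. The next places at E14.5 went to Timp3 and Timp2 in both sexes. At E16.5 the second place was held by Adamts1, with 166 ± 7.29 CPM per kb in females and 121 ± 17.6 in males. Timp3 took the 7th place in E16.5 females at 35.4 ± 0.942 CPM per kb and the 5th in E16.5 males at 86.1 ± 10.2. In both uterine groups Timp2 held the second and Mmp14 the third place. Mmp2 and Mmp14 together made up between 75.1% (uterine Gli1+) and 83.4% (E14.5 females) of the summed Mmp level per kb.

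Open chromatin, from ATAC-seq of the fetal Gli1+ cells, was deposited as 1 list of 71040 peak positions with no sample or height, so it is described once for all groups. A peak lay within 1 kb of an annotated start for 38 of the 51 members (74.5%), against 53.9% of 26935 genes with a start site. Among members that reached 1 CPM in a fetal group the share was 34 of 36 (94.4%), close to the 94.0% of all genes at that level. The 2 without such a peak were Adamts16 and Mmp19: the nearest peak to Adamts16 (chromosome 13, 70727802 to 70841811, minus strand) lay inside the gene, 1389 bp from its start, and the nearest to Mmp19 lay 11076 bp away. Of the 15 members under 1 CPM in every fetal group 4 had a peak (26.7%, against 17.1% of all such genes), namely Adamtsl3, Mmp24, Mmp8 and Timp4.

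RefSeq promoters of GRCm38.p6 (the assembly called mm10; windows of 250 bases before to 50 after the start) were found for 36 of the 51 members. The 250 bases before the start are shown for 5 members whose levels differed between groups and whose window a peak overlapped. They are also shown for 2 members of the silent chromosome 9 cluster with no peak over the window. For Mmp28 (peak 83462766 to 83463152) and Adamts1 (peak 85802916 to 85803346) the peak covered only part of the window. All run 5′ to 3′ on the gene's strand, and capitals mark the motifs searched for.
Timp3, chr10:86300162-86300411, plus strand: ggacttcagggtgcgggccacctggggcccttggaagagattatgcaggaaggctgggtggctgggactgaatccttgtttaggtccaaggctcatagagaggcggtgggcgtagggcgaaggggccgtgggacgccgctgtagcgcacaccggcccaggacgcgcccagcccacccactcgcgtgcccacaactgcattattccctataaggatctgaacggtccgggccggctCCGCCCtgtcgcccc
Adamts1, chr16:85803114-85803363, minus strand: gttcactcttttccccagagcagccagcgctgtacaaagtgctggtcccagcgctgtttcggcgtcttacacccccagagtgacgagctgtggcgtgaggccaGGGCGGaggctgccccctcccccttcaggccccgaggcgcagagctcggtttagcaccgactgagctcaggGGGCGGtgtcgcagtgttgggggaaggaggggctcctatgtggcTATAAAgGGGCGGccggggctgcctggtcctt
Adamts17, chr7:66839485-66839734, plus strand: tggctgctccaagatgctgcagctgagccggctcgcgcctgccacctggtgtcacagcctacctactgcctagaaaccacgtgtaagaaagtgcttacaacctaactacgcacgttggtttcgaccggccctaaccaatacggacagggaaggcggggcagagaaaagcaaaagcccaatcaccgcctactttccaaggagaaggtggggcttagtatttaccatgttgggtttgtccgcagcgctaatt
Adamtsl2, chr2:27079129-27079378, plus strand: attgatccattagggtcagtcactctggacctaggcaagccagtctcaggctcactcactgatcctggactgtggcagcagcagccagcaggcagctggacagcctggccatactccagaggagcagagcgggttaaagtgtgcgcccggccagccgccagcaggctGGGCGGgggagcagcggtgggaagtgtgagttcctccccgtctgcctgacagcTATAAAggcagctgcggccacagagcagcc
Mmp28, chr11:83463041-83463290, minus strand: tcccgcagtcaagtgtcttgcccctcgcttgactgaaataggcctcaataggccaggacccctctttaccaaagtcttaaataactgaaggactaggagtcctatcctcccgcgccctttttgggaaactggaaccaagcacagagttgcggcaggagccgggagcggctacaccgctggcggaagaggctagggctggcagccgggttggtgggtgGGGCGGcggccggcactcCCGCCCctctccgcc
Mmp3, chr9:7445572-7445821, plus strand: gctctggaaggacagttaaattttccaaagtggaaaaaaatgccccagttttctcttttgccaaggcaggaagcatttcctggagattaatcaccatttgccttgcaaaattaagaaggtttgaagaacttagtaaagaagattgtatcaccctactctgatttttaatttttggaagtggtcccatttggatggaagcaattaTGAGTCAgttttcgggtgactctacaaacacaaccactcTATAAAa
Mmp13, chr9:7272264-7272513, plus strand: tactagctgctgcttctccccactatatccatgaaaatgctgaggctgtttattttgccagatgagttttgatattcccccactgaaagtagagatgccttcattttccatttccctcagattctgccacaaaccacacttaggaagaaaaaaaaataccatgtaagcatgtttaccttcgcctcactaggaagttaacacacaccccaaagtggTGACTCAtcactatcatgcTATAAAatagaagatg
The motifs were searched on both strands of the 300-base windows. The AP-1 motif TGANTCA was present in 7 of the 36 members (19.4%) and in 7.93% of all 27025 promoters; all 7 (Mmp1a, Mmp1b, Mmp3, Mmp7, Mmp10, Mmp13 and Mmp20) belong to the chromosome 9 cluster. The TATA motif TATAAA was present in 11 members (30.6%, against 14.2% of all promoters), among them Adamts1 and Adamtsl2, and the Sp1 motif GGGCGG in 21 (58.3%, against 35.9%), among them Timp1, Timp2 and Timp3. The GLI motif GACCACCCA was found in none of the 36 and in 0.244% of all promoters. Median GC content of the windows was 66.0% for the 21 members that reached 1 CPM in a fetal group, 43.7% for the 15 below that level and 52.7% for all promoters. A match is a run of letters and not evidence of binding.

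**Figure D1:**
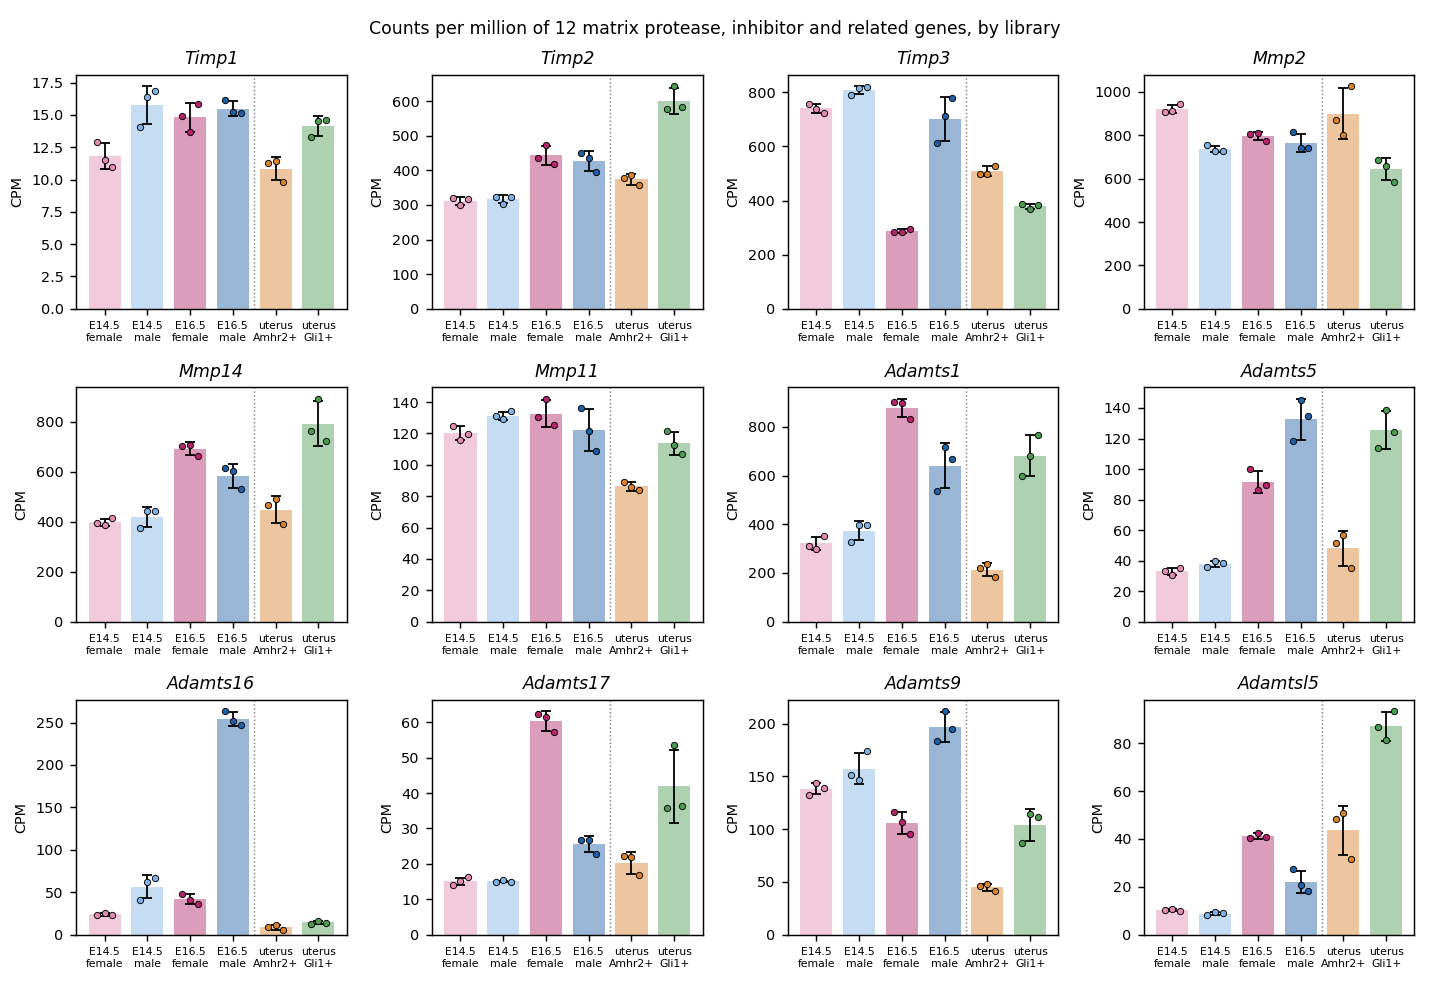
CPM (y axes, linear, each with its own scale) of 12 members in the 6 groups; bars are means of 3 libraries, error bars are SD, points are libraries, and the dotted line parts the separately normalized fetal and uterine tables. Timp3 stands between 282 and 297 CPM in E16.5 females and between 614 and 820.2 CPM in the males of both ages, while Adamts16 stands at 248 to 263 CPM in E16.5 males and at no more than 66.9 CPM in any other library.

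Between females and males at E14.5 few members differed. Of 37 members tested, 8 passed an adjusted p of 0.05 by edgeR's quasi-likelihood test (21.6%), against a background of 6.28% of all 17858 genes; 3 were higher in females and 5 in males (background 2.59% and 3.69% of genes). The proteases Mmp2, Adamts12 and Adamts20 were higher in females. Adamts16, Adamts6, Mmp9, Mmp15 and the inhibitor Timp1 were higher in males. The median log2 fold change, female over male, was -0.02 for the 37 members and -0.01 for all genes. Summed markers of other cell types also separated the sexes at E14.5: smooth muscle (301 to 325 CPM in female, 604 to 885 CPM in male libraries), epithelium (29.7 to 33.9 and 44.6 to 52.5), mesothelium (25.3 to 31.6 and 35.3 to 41.8), gonad (44.2 to 46.3 and 47.0 to 55.3) and neural markers (12.8 to 14 and 10.9 to 11.8). In the gonad list Foxl2 averaged 19.8 CPM in females and 26.7 in males, while Star (14.7 and 12.9) and Amh (3.11 and 2.22) went the other way. The part of these lists in the differences was not tested.

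Mmp2 stood at 908, 911 and 942.5 CPM in the E14.5 female libraries and at 753.5, 728 and 729 CPM in the male ones. The sexes did not overlap, and the log2 fold change was 0.32 (SE 0.06, adjusted p 0.00359, edgeR). Adamts20, a proteoglycan-cleaving enzyme, held 60.9, 56.7 and 51.9 CPM in females against 44.5, 36.6 and 36.6 CPM in males (log2 fold change 0.53, adjusted p 0.00315). All 3 female libraries lay above all 3 male ones. Adamts16, an enzyme whose disruption in rats has been tied to undescended testes, gave 23.4, 25.8 and 22.8 CPM in females and 40.9, 61.6 and 66.9 CPM in males. That was the largest difference among the members with at least 5 CPM, with -1.24 on the log2 scale (SE 0.16, adjusted p 0.000535), and male replicate 1 was the lowest of its group. Timp1, a soluble Mmp inhibitor on the X chromosome (20870166 to 20874735), averaged 11.8 ± 0.990 CPM in females and 15.8 ± 1.48 CPM in males (log2 fold change -0.42, adjusted p 0.0169). This call was lost without E14.5 female replicate 3, the library with globin RNA (adjusted p 0.0995), and without female replicate 2 or male replicate 2 or 3 (adjusted p 0.0781, 0.0694 and 0.103), while 7 of the 8 members remained called without female replicate 3, a fit that called 3.58% of all genes. Mmp9, gelatinase B, which is abundant in leukocytes, lay low in both sexes, with female libraries at 1.30 ± 0.157 and male ones at 3.40 ± 0.979 CPM (log2 fold change -1.39, adjusted p 0.00654). Of 6 immune markers, none at 0, Cd68 had the highest level, at a mean of 57.4 (female) and 48.9 CPM (male). The summed level of the list was 58.3 to 67.8 and 42.4 to 58.5 CPM, and the part of such cells in the Mmp9 difference was not tested.

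Adamts12, at 207 ± 11.5 CPM in females and 148 ± 21.4 in males, had a log2 fold change of 0.49 (adjusted p 0.0114). Its call was lost without female replicate 1 (adjusted p 0.0546) and without male replicate 2 or 3 (adjusted p 0.0508 and 0.0538). The fibrillin-linked enzyme Adamts6 was lower in females by a log2 fold change of -0.47 and the membrane-type protease Mmp15 by -0.40. Timp2, Timp3, Mmp14, Mmp11, Adamts1, Adamts4 and Adamts5 did not pass, with log2 fold changes between -0.22 and 0.05.

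By E16.5 more members separated the sexes, in both directions. Of the 37 tested, 20 passed (54.1%), against 27.3% of all genes, with 10 higher in females and 10 higher in males (background 13.2% and 14.1% of genes). The inhibitor Timp3, Adamts16 and the proteoglycan-cleaving Adamts5, Adamts8, Adamts9 and Adamts20 were higher in males, and Adamts1, Adamts4 and Adamts17 were higher in females. The median log2 fold change was 0.08 for members and 0.01 for all genes. The sum of the smooth muscle markers (Acta2, Myh11, Tagln, Cnn1 and Des, 5 of 5 found and none at 0) moved with sex as well, with 464 to 564 CPM in the female and 1700 to 2850 CPM in the male libraries. Acta2 (mean 275 against 1810 CPM) and Myh11 (15.5 against 314) carried most of it. Des did not follow, at 204 against 196 CPM with overlapping libraries. The sums of epithelial (22.2 to 31.9 against 32.0 to 40.3 CPM), endothelial (64.3 to 77.5 against 81.7 to 91.5), gonad (45.5 to 51.5 against 63.1 to 70.7) and neutrophil markers (1.10 to 1.40 against 0.133 to 0.436) did not overlap between the sexes either, and the part of these lists in the differences was not tested. Foxl2 made up most of the gonad sum (34.3 against 52.2 CPM). In the endothelial list Kdr was higher in males (30.1 against 47.8 CPM) and Emcn lower (37.1 against 27.8).

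Timp3 (chromosome 10, 86300372 to 86349506), the matrix-bound inhibitor, held 282, 285 and 297 CPM in the E16.5 female libraries. The male libraries held 614, 711 and 779 CPM, so the lowest male value was above every female one. The log2 fold change was -1.28 (SE 0.08, adjusted p 6.48e-09). Timp2, which together with Mmp14 activates pro-Mmp2, averaged 443 ± 28.2 CPM in females and 427 ± 28.9 in males and did not pass (log2 fold change 0.05, adjusted p 0.611). Timp1 averaged 14.8 ± 1.10 and 15.5 ± 0.547 CPM and did not pass either (adjusted p 0.674).

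Adamts16 stood at 48.1, 40.4 and 36.5 CPM in females and at 263, 252 and 248 CPM in males (log2 fold change -2.61, SE 0.16, adjusted p 1.36e-07). This was the widest gap of any member at this age, and the groups were far from overlapping. Adamts17, an enzyme linked to fibrillin microfibrils, went the other way: 62.3, 61.6 and 57.2 CPM in females against 26.8, 26.8 and 22.9 CPM in males (log2 fold change 1.25, SE 0.08, adjusted p 1.16e-08). The lowest female library lay above the highest male one.

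Among the enzymes known to cleave the proteoglycan versican, Adamts9 averaged 106 ± 10.5 CPM in females and 196 ± 14.3 in males (log2 fold change -0.89, SE 0.08), Adamts5 91.8 ± 7.15 and 133 ± 13.5 (-0.53), and Adamts20 21.8 ± 2.12 and 31.8 ± 2.12 (-0.54). Adamts8, a low-expressed relative at 4.14 ± 0.535 and 8.45 ± 0.770 CPM, was also higher in males (-1.02). Adamts1 was the exception with a high level: 903, 897 and 833 CPM in females against 537, 717 and 668 CPM in males. Its log2 fold change was 0.45 (adjusted p 0.00373), with male replicate 1 below the others and no overlap. Adamts4 averaged 51.5 ± 4.66 and 39.5 ± 6.39 CPM (0.38, adjusted p 0.0114), a call lost without female replicate 2 (adjusted p 0.0741) or male replicate 3 (adjusted p 0.0682) and with only the groups compared in the fit (adjusted p 0.0530). Adamts15, also of this class, did not pass (-0.27, adjusted p 0.131).

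Of the Mmp genes, Mmp14 (chromosome 14, 54431612 to 54445364), a membrane-anchored collagenase and activator of pro-Mmp2, averaged 692 ± 26.2 CPM in females and 583 ± 46.8 in males. Its log2 fold change of 0.25 had an adjusted p of 0.0272, which rose to 0.0979 and 0.111 without female replicates 1 and 2, to 0.151 without male replicate 3 and to 0.0520 with only the groups compared in the fit. Mmp17, held at the membrane by a lipid anchor, averaged 17.1 ± 1.39 and 11.2 ± 1.30 CPM (0.61), and Mmp16 61.6 ± 2.5 and 42.9 ± 6.75 CPM (0.52). Mmp9 remained low and higher in males (0.803 ± 0.329 against 1.72 ± 0.278 CPM, log2 fold change -1.09, adjusted p 0.0109). Mmp2, which was higher in females at E14.5, averaged 797 ± 20.6 and 766 ± 41.1 CPM and did not pass (0.06, adjusted p 0.533).

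The Adamtsl proteins divided. Adamtsl5 was higher in females, at 41.3 ± 1.17 against 22.0 ± 4.68 CPM (log2 fold change 0.91), and Adamtsl2, a protein bound to fibrillin and to latent TGF-beta binding protein, was higher in males, at 4.90, 3.74 and 5.38 against 9.39, 10.04 and 10.95 CPM (-1.12, adjusted p 0.000513). Adamtsl1 averaged 124 ± 5.34 and 126 ± 4.54 CPM and Adamtsl4 14.2 ± 0.930 and 13.4 ± 0.236 CPM, and neither passed. The procollagen N-proteinase Adamts14 was higher in females (45.5 ± 3.10 against 31.5 ± 4.93 CPM, 0.53), whereas Adamts2, of the same kind, averaged 178 ± 22.0 and 193 ± 21.2 CPM and did not pass (-0.11, adjusted p 0.438).

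**Figure D2:**
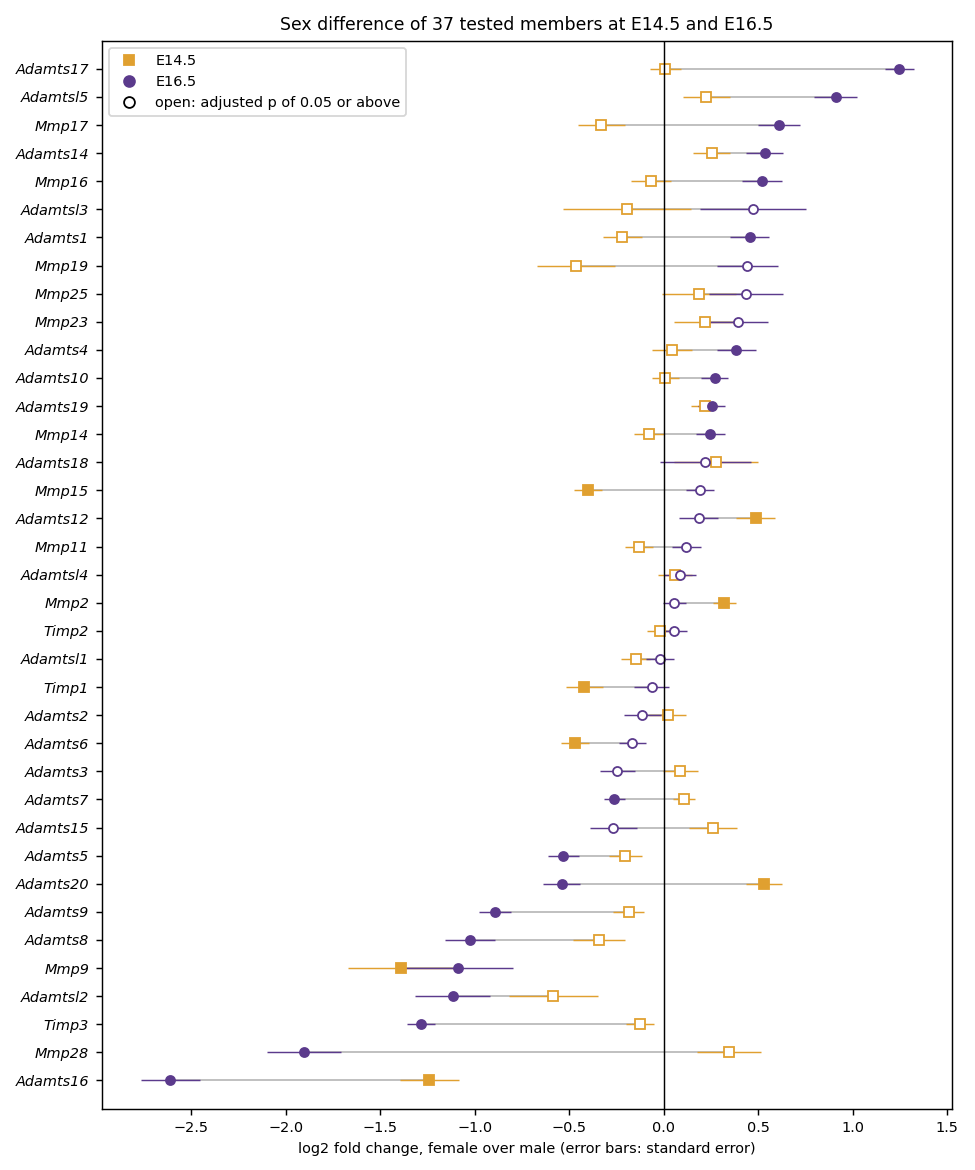
Log2 fold change of females over males (x axis) for the 37 tested members (rows, ordered by the value at E16.5), with squares for E14.5, circles for E16.5, standard errors as bars, and filled symbols for an adjusted p under 0.05. The E16.5 circles run from -2.61 for Adamts16 to 1.25 for Adamts17, and Adamts20 has filled symbols on both sides of 0.

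The comparisons at E14.5 and E16.5 use separate libraries. Members called at both ages numbered 3, which is 37.5% of the 8 and 15% of the 20. They were Adamts16 and Mmp9, higher in males at both, and Adamts20, which was higher in females at E14.5 and in males at E16.5. Of all genes 6.28% and 27.3% were called at E14.5 and E16.5. Their overlap was not counted, so that of the members is not read as particular to them. The change in the sex difference itself was tested as an interaction, and 14 of 37 members passed (37.8%, against 10% of all genes), with 7 in each direction (background 4.66% and 5.36%). The interaction values are differences of log2 fold changes, positive where the female-over-male difference moved upward from E14.5 to E16.5.

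Timp3 had an interaction of -1.16 (SE 0.11, adjusted p 3.95e-06): its E14.5 libraries held 759, 737 and 725 CPM in females and 790.3, 815 and 820.2 CPM in males, and the sex difference there did not pass (log2 fold change -0.13, adjusted p 0.397). Adamts17 had the opposite pattern with 1.24 (SE 0.11, adjusted p 3.95e-06), with 14.1, 15.04 and 16.1 CPM in the E14.5 female and 14.9, 15.3 and 14.8 CPM in the E14.5 male libraries. Adamts16 had -1.37 (adjusted p 0.00144) and Adamts20 -1.07 (adjusted p 9.22e-05). Negative interactions were also found for Adamts9 (-0.71), Adamts8 (-0.68) and Adamts7 (-0.37), and positive ones for Mmp17 (0.94), Adamtsl5 (0.68), Adamts1 (0.67), Mmp15 (0.59) and Mmp16 (0.59). The call of Adamts8 was lost when any of 7 libraries was left out, with adjusted p between 0.0541 and 0.0928, and that of Mmp16 when any of 4 was left out, with adjusted p between 0.0515 and 0.0599. Adamts7 lies over Tbc1d2b on the opposite strand, and as the fetal kit kept no strand, reads of the overlap cannot be told apart.

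Mmp28, epilysin, which is known from skin and testis, was picked out after its values were seen, since its level was below 5 CPM. The E14.5 libraries gave 3.97, 4.42 and 5.18 CPM for females and 3.62, 3.24 and 3.82 CPM for males. Later the E16.5 female libraries held 0.832, 0.615 and 0.783 CPM and the male ones 3.15, 2.99 and 2.28 CPM. Among the fetal groups only the E16.5 females were low, at 25 to 34 counts per library, and the interaction was -2.25 (SE 0.26, adjusted p 4.05e-05). Per kb of exon Mmp28 averaged 0.192 CPM in E16.5 females, and 0.0685 and 0.117 CPM in uterine Amhr2+ and Gli1+ cells, which were normalized separately. Mmp2 had an interaction of -0.26 and did not pass (adjusted p 0.0573), though it did in DESeq2 (adjusted p 0.00405).

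From E14.5 to E16.5 in females, more members rose than fell. Of the 37, 29 passed (78.4%), against 39.6% of all genes; 20 rose and 9 fell (background 21% and 18.6%). All 5 Adamtsl genes rose, as did 8 of 18 tested Adamts and 5 of 11 tested Mmp genes, and the inhibitors split, with Timp1 and Timp2 up and Timp3 down. Adamtsl3 rose by 0.99, with female means under 1 CPM at both ages. Its call was lost without E16.5 female replicate 3 or E14.5 female replicate 2 or 3 (adjusted p 0.0875, 0.0610 and 0.0951). The median log2 fold change, E16.5 over E14.5, was 0.32 for members and 0.00 for all genes. Smooth muscle markers summed to 301 to 325 CPM in E14.5 and 464 to 564 CPM in E16.5 females, endothelial ones to 112 to 123 and 64.3 to 77.5 CPM, and mesenchyme ones to 28300 to 29900 and 38300 to 44200 CPM, and their part was not tested. The mesenchyme sum was mostly Col1a1 (mean 13500 and 22400 CPM) and Col3a1 (13500 and 17400), and Vim was higher at E16.5 too (602 and 742). Pdgfra (989 and 646), Pdgfrb (561 and 494) and Twist1 (38.8 and 37.5) averaged lower at E16.5.

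Timp3 fell in females from 740.4 ± 17.1 to 288 ± 7.67 CPM (log2 fold change -1.36, SE 0.08, adjusted p 2.77e-09), with no overlap between the ages. Timp2 rose from 319, 299 and 318 CPM to 436, 474 and 419 CPM (0.51, adjusted p 3.19e-05). Mmp14 rose from 393, 386 and 413.5 CPM to 705, 709 and 661.5 CPM (0.80, SE 0.08, adjusted p 1.21e-06), and Mmp2, whose precursor Mmp14 activates, fell from 921 ± 19.1 to 797 ± 20.6 CPM (-0.21, adjusted p 0.0112). Timp1 rose by 0.32 (adjusted p 0.0165), a call lost without E16.5 female replicate 3 or E14.5 female replicate 2 or 3 (adjusted p 0.0627, 0.0589 and 0.0757).

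Among versican-cleaving enzymes in females, Adamts1 (chromosome 16, 85793827 to 85803113) rose from 312, 300.1 and 352 CPM to 903, 897 and 833 CPM (log2 fold change 1.45, SE 0.10, adjusted p 5.41e-08). Its neighbour Adamts5, 53059 bp away, rose from 32.9, 30.6 and 35.1 to 99.8, 86.0 and 89.5 CPM (1.48, adjusted p 4.00e-09), and Adamts4 rose by 0.68. In the opposite direction Adamts20 fell from 56.5 ± 4.50 to 21.8 ± 2.12 CPM (-1.37, adjusted p 4.03e-08) and Adamts9 fell by 0.39. Adamts15 did not pass (0.03). All 3 libraries of the later age lay on the same side for each of these genes that passed.

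The largest rises in females among members with at least 5 CPM were those of Adamtsl5, from 10.3 ± 0.343 to 41.3 ± 1.17 CPM (2.01, SE 0.12), Adamts17, from 15.1 ± 1.01 to 60.4 ± 2.72 CPM (1.999, SE 0.08), and Mmp17, from 5.81 ± 0.117 to 17.1 ± 1.39 CPM (1.55). Adamts5 and Adamts1, above, came next, and smaller rises included those of Adamtsl1 (0.85), Adamts16 (0.80) and Adamts6 (0.74). The membrane-type Mmp15 fell from 20.8 ± 0.576 to 11.1 ± 0.243 CPM (-0.90), and the low Mmp28 fell by 2.60. Adamts2 and Mmp11, a stromal protease also called stromelysin-3, did not pass, at -0.10 and 0.14.

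In males 25 of the 37 members passed with age (67.6%, against 23.3% of all genes), 20 rising and 5 falling (background 13.1% and 10.2%). The median log2 fold change was 0.32 for members and -0.01 for all genes. The female and male age comparisons share no library, and 20 members were called in both, 69% of the female and 80% of the male list. Of all genes 39.6% and 23.3% were called, and their overlap was not counted, so that of the members is not read as particular to them. Of the 20 members, 15 rose in both sexes, 3 fell in both (Adamts18, Adamts20 and Mmp15), and Adamts7 and Adamts9 fell in females and rose in males. Of these opposite calls, that of Adamts7 (-0.18 and 0.19) was lost in females without E14.5 replicate 1 or 3 or E16.5 replicate 2 or 3 (adjusted p 0.0588 to 0.0899) and in males without E14.5 replicate 1 or E16.5 replicate 2 (0.0608 and 0.0696). It was also lost in females without the low-count filter (0.108), and in males with scaling by total count (0.111) and with only the groups compared (0.0908). Smooth muscle markers summed to 604 to 885 CPM in E14.5 and 1700 to 2850 CPM in E16.5 males. Endothelial ones summed to 101 to 115 and 81.7 to 91.5 CPM, and epithelial ones to 44.6 to 52.5 and 32.0 to 40.3 CPM. Mesenchyme markers summed to 24100 to 28400 and 31800 to 39100 CPM, and gonad ones to 47 to 55.3 and 63.1 to 70.7 CPM. The part of these lists was not tested. Col1a1 (mean 12100 and 16800 CPM) and Col3a1 (12400 and 16600) made up most of the mesenchyme sum. Pdgfra and Vim averaged higher at E16.5 too, Pdgfrb and Twist1 lower. In the gonad list Foxl2 averaged higher (26.7 and 52.2), and Sox9, Star and Amh lower. With libraries scaled by total count alone, 17 members rose and 7 fell, while over all genes 1847 rose and 2641 fell, against 2340 and 1828 in the TMM-scaled fit.

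Adamts16 rose most, from 40.9, 61.6 and 66.9 CPM to 263, 252 and 248 CPM (log2 fold change 2.17, SE 0.15, adjusted p 7.44e-07), compared with a rise from 24.0 ± 1.60 to 41.6 ± 5.92 CPM in females. Adamtsl2 rose from 2.64 ± 0.905 to 10.1 ± 0.783 CPM (1.90), and Adamts5 from 37.8 ± 1.81 to 133 ± 13.5 CPM (1.81, SE 0.09, adjusted p 9.64e-10). Adamtsl5 (1.32), Adamts1 (0.78), Adamts17 (0.76), Adamtsl1 (0.72), Mmp17 (0.61), Adamts15 (0.56) and Adamtsl4 (0.54) rose as well. Mmp15 fell from 27.5 ± 0.857 to 9.74 ± 0.452 CPM (-1.49, SE 0.07, adjusted p 1.95e-09).

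Timp3 averaged 809 ± 15.97 CPM in E14.5 and 701 ± 82.9 CPM in E16.5 males and did not pass (log2 fold change -0.21, adjusted p 0.0584). It passed without E16.5 male replicate 3 (adjusted p 0.0141) and when libraries were scaled by total count alone (adjusted p 0.00722). Timp2 rose from 316 ± 11.8 to 427 ± 28.9 CPM (0.43, adjusted p 0.000202), and Mmp14 from 420 ± 40.3 to 583 ± 46.8 CPM (0.47, adjusted p 0.000316). Mmp2 stayed between 728 and 814 CPM in all 6 male libraries and did not pass (0.06, adjusted p 0.537). Mmp23 averaged 23.5 ± 1.72 and 34.1 ± 10.7 CPM and passed at 0.54 (adjusted p 0.0300); without E16.5 male replicate 1, which held 46.5 CPM, the value was 0.25 (adjusted p 0.0363), and the call was lost without any of the 3 E14.5 male libraries (adjusted p 0.0572 to 0.101), with scaling by total count (0.0700), without the low-count filter (0.0831) and with only the groups compared (0.105). Adamts9 (0.32) and Adamts20 (-0.30) each depended on single libraries: without E14.5 male replicate 2 the adjusted p of Adamts9 was 0.0508, and without E14.5 male replicate 1 or E16.5 male replicate 2 or 3 that of Adamts20 was 0.138, 0.0507 and 0.137. With only the groups compared in the fit, the adjusted p of Adamts20 was 0.0738.

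**Figure D3:**
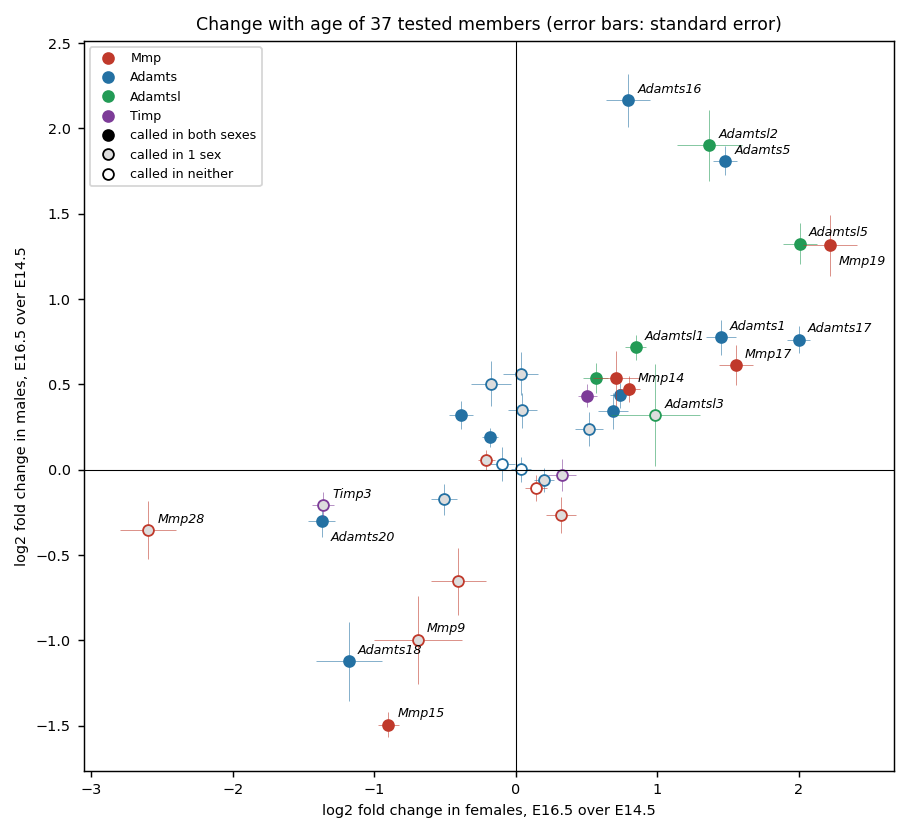
Log2 fold change from E14.5 to E16.5 in females (x axis) and in males (y axis) for the 37 tested members, with standard errors as bars, colours for the gene families and fill for the number of sexes in which the adjusted p was under 0.05. Adamts16 lies highest in males (2.17) with 0.80 in females, and Timp3 lies at -1.36 in females and -0.21 in males.

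In the neonatal uterus most members that differed were lower in Amhr2+ than in Gli1+ cells. Of 38 tested, 24 passed (63.2%), against 23.9% of all 16195 genes; 20 were lower and 4 higher in Amhr2+ cells (background 13.7% and 10.1%). When libraries were scaled by total count alone, 25 members passed, 18 lower and 7 higher. That scaling called 27.7% of all genes, 2849 higher and 1640 lower, against 1642 higher and 2224 lower in the TMM-scaled fit. The median log2 fold change, Amhr2+ over Gli1+, was -0.39 for members and 0.00 for all genes. Several marker lists differed too: smooth muscle markers summed to 1120 to 1760 CPM in Amhr2+ and 2090 to 2320 CPM in Gli1+ libraries, 7 epithelial markers to 71.0 to 72.7 against 30.8 to 42.6 CPM, and 5 neutrophil markers to 0.678 to 3.03 against 8.81 to 12.2 CPM, with no marker of these lists at 0 in all libraries. Mpo made up most of the neutrophil sum (mean 1.97 against 9.64 CPM), and each other neutrophil marker averaged 0.252 CPM or less. Of the smooth muscle markers Des overlapped between the groups (189 and 192 CPM). The sums of mesenchyme (21100 to 23000 against 38200 to 42100 CPM), endothelial (23.8 to 29.5 against 36.6 to 44.8), erythroid (0.296 to 0.726 against 1.63 to 2.17), neural (10.6 to 14.7 against 9.56 to 9.94) and gonad markers (72.5 to 120 against 62.7 to 65.8) did not overlap between the groups either, and the part of these lists was not tested. The mesenchyme sum was mostly Col1a1 (mean 10900 against 21500 CPM) and Col3a1 (9400 against 16300), and Vim was lower too (598 against 830). Pdgfra (579 and 564), Pdgfrb (504 and 500) and Twist1 (25.3 and 20.2) were not lower in Amhr2+ cells. Foxl2 made up most of the gonad sum (99.4 against 62.2 CPM), and Sox9 went the other way (0.302 against 0.573). Hba-a1 made up most of the erythroid sum (0.338 against 1.64 CPM).

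The 2 abundant inhibitors moved apart. Timp3 held 497, 498 and 529 CPM in Amhr2+ and 387, 368 and 382.5 CPM in Gli1+ libraries, and was higher in Amhr2+ cells (log2 fold change 0.42, SE 0.06, adjusted p 0.00154). Timp2 held 377, 386 and 357 CPM in Amhr2+ and 577, 644 and 582 CPM in Gli1+ libraries, and was lower by -0.69 (SE 0.07, adjusted p 0.000274). Neither pair of groups overlapped. Timp1 averaged 10.8 ± 0.901 and 14.1 ± 0.742 CPM (-0.38, adjusted p 0.0320), a call lost when any 1 of the 6 libraries was left out (adjusted p 0.0525 to 0.0948), with scaling by total count (0.0686) and without the low-count filter (0.0509).

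Mmp2 and its activator Mmp14 also differed in opposite directions. Mmp2 measured 872, 799.7 and 1029 CPM in Amhr2+ against 688, 659 and 586.5 CPM in Gli1+ libraries (log2 fold change 0.48, SE 0.10, adjusted p 0.0112). Mmp14 measured 467, 489 and 389 CPM against 762.5, 893 and 722 CPM (-0.82, SE 0.11, adjusted p 0.00121). All 3 Amhr2+ libraries were above the Gli1+ ones for Mmp2 and below them for Mmp14. Mmp19, a secreted protease found in many tissues, stood at 2.33 ± 0.704 against 14.03 ± 3.20 CPM (-2.57), though it overlaps Tmem198b on the opposite strand, and Mmp17 at 19.0 ± 5.92 against 69.2 ± 10.8 CPM (-1.86). Smaller differences were found for Mmp23 (-0.50) and Mmp11 (-0.40). The calls of Mmp15 (-0.56) and Mmp16 (-0.28) were lost when any of 4 libraries was left out, with adjusted p of 0.0631 to 0.124 and 0.0537 to 0.130, and that of Mmp16 also with scaling by total count (0.0988).

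Adamts1, Adamts5 and Adamts9, which can cleave versican, were lower in Amhr2+ cells, while others of that class did not pass. Adamts1 gave 219.5, 235 and 184 CPM in Amhr2+ and 599.9, 681 and 765 CPM in Gli1+ libraries (log2 fold change -1.68, SE 0.12, adjusted p 5.57e-05). Adamts5 gave 51.7, 56.9 and 35.2 against 113.5, 139 and 124 CPM (-1.39, adjusted p 0.00157), and Adamts9 44.7 ± 3.47 against 104 ± 15.2 CPM (-1.21). Adamts4 averaged 57.9 ± 1.78 and 58.4 ± 7.22 CPM (-0.01, adjusted p 0.928), Adamts15 83.8 ± 8.13 and 80.8 ± 8.81 CPM (0.05, adjusted p 0.733) and Adamts20 17.3 ± 0.888 and 14.7 ± 0.710 CPM (0.23, adjusted p 0.0977), and none of these passed. Adamts8 was higher in Amhr2+ cells, at 17.9 ± 1.28 against 8.93 ± 1.21 CPM (1.00). Adamts14 was lower at 12.04 ± 3.13 against 30.2 ± 6.999 CPM (-1.33) and Adamts2 at 244 ± 6.85 against 332 ± 18.4 CPM (-0.45), both procollagen N-proteinases, and Adamts17 at 20.3 ± 3.08 against 41.9 ± 10.2 CPM (-1.04). Adamts13, the von Willebrand factor protease, passed at 1.36 (adjusted p 0.0273) on no more than 16 counts a library and lost the call under 7 of 10 alternatives.

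Adamtsl2 had the largest fold change of any member in the uterus. Its libraries held 0.674, 0.755 and 0.576 CPM in Amhr2+ and 7.56, 6.78 and 6.33 CPM in Gli1+ cells, which is 17 to 28 counts against 210 to 254, and the log2 fold change was -3.35 (SE 0.19, adjusted p 1.67e-05). Adamtsl4 (14.2 ± 1.87 against 31.8 ± 2.93 CPM, -1.16), Adamtsl5 (43.5 ± 10.4 against 87.2 ± 6.02 CPM, -0.999) and Adamtsl1 (110 ± 5.11 against 167 ± 21.4 CPM, -0.60) were lower as well. Adamts18 averaged 64.3 ± 25.5 and 43.1 ± 4.02 CPM with overlapping groups and did not pass.

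**Figure D4:**
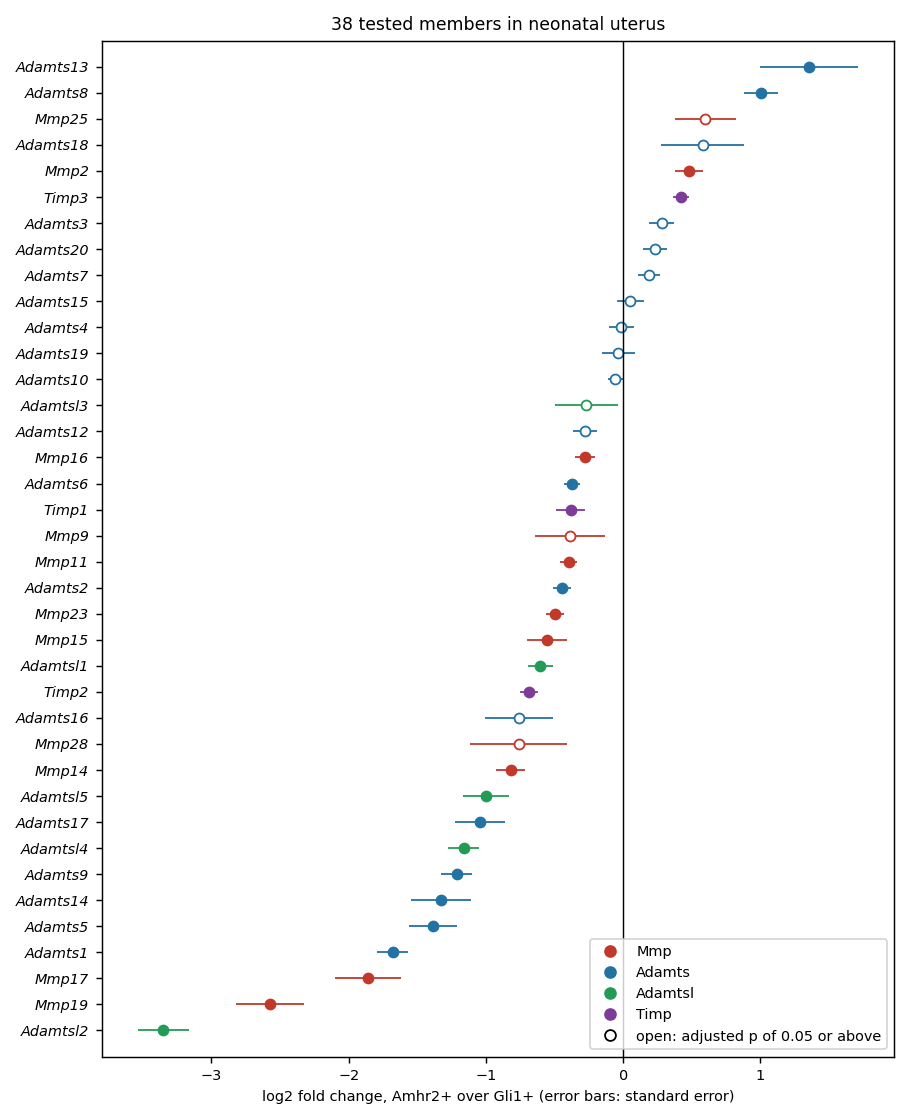
Log2 fold change of uterine Amhr2+ over Gli1+ cells (x axis) for the 38 tested members (rows, ordered), with standard errors as bars, colours for the gene families and filled symbols for an adjusted p under 0.05. Filled symbols to the right of 0 belong to 4 members, among them Timp3 (0.42) and Mmp2 (0.48), and the row farthest left is Adamtsl2 (-3.35).

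Sums per kilobase put the Timp inhibitors beside the Mmp proteases, with the Adamts proteases left out of the ratio. Being sums over chosen genes they are given without a test. The summed Timp level over the summed Mmp level was 0.452 ± 0.0150 for E14.5 females and 0.548 ± 0.00814 for their male counterparts. The E16.5 values were 0.374, 0.386 and 0.387 in the female and 0.4935, 0.555 and 0.577 in the male libraries. The uterine ratios were 0.413 ± 0.0303 in Amhr2+ and 0.504 ± 0.0278 in Gli1+ cells. Female ratios were thus below male ratios at both ages in every library, and Amhr2+ ratios below Gli1+ ones. The make-up of the sum varied more than its size: Timp3 contributed 49.3 ± 0.822% to the female and 50.1 ± 0.802% to the male sum at E14.5, but 21.4 ± 1.09% and 40.4 ± 4.33% at E16.5. In the uterus its share was 36.6 ± 1.86% in Amhr2+ and 21.5 ± 1.40% in Gli1+ cells, and Timp2 made up most of the rest, at 56.2 ± 1.37% and 71.1 ± 1.495%. In plain CPM, without the length, the uterine means lay closer together than either SD, at 0.568 ± 0.0208 in Amhr2+ and 0.557 ± 0.03175 in Gli1+ cells.

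**Figure D5:**
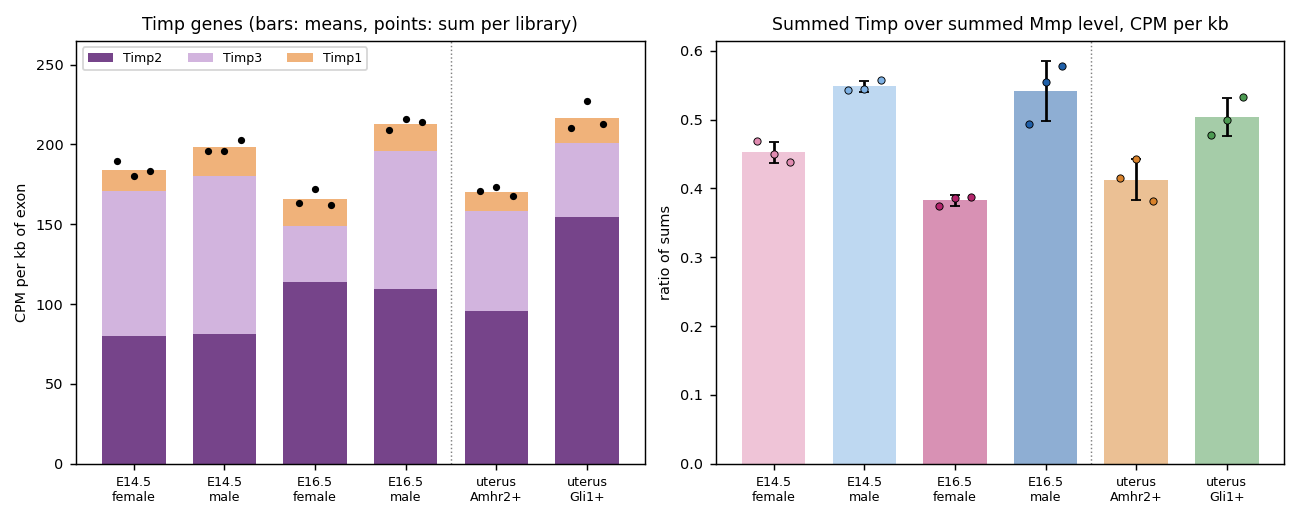
Left, summed Timp level (y axis, CPM per kb of exon) split into Timp2, Timp3 and Timp1, with bars for group means and points for the sum of each of 3 libraries; right, ratio of summed Timp to summed Mmp level, with means as bars, SD as error bars and libraries as points. The Timp3 part is small in E16.5 females (35.4 CPM per kb) and uterine Gli1+ cells (46.6 CPM per kb), and the lowest ratio is that of E16.5 females (0.382).

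Other genes of pericellular proteolysis were read from a list of 43 companions (Adam sheddases, plasminogen activators, serpins, procollagen C-proteinases, cathepsins and others), 39 of which were tested. Between the sexes 4 passed at E14.5 (10.3%, against 6.28% of all genes) and 17 at E16.5 (43.6%, against 27.3%), 9 higher in females and 8 in males. With age 25 passed in females (64.1%, against 39.6%; 19 rose, 6 fell) and 22 in males (56.4%, against 23.3%; 16 rose, 6 fell). In the uterus 22 passed (56.4%, against 23.9%), 4 higher and 18 lower in Amhr2+ cells. At E16.5 the protease inhibitor A2m (log2 fold change 2.18), the testican Spock3 (2.30), the Adamts-related Papln (1.01) and the urokinase gene Plau (0.79) were higher in females, and Spock1 (-1.80), the tolloid-like Tll1 (-0.80), Adam23 (-0.74) and the convertase Pcsk5 (-0.68) in males. With age Spock1, Adam12 and Tll1 rose in both sexes, by 3.19, 2.89 and 2.30 in females and 3.78, 2.45 and 2.36 in males, and Pcsk5 (-1.22 and -0.73) and the urokinase receptor gene Plaur (-0.73 and -0.79) fell in both. In uterine Amhr2+ cells Htra1 (0.94) and Plau (0.90) were higher and Spock1 (-2.84), Htra3 (-1.80), Plaur (-1.33) and the procollagen C-proteinase enhancer Pcolce (-1.19) lower.

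Of 20 matrix and related proteins that the enzymes act on or bind, 19 were tested. Between the sexes 3 passed at E14.5 (15.8%) and 9 at E16.5 (47.4%), with age 10 in females (52.6%) and 12 in males (63.2%), and in the uterus 13 (68.4%), to be read against the same shares of all genes. The following were picked out after their values were seen. Vcan, the versican gene, fell with age in females from 2734 ± 149.9 to 1408 ± 98.6 CPM (log2 fold change -0.96, adjusted p 3.29e-06), the same comparison in which Adamts1 and Adamts5 rose and Adamts20 fell. In males these 3 enzymes were called in the same directions with age, but Vcan did not pass. Of the other versican-cleaving enzymes named above, Adamts9 fell in females and rose in males, Adamts4 rose in both, and Adamts15 rose in males only. A link between these enzymes and the Vcan level was not tested. At E16.5 Vcan was lower in females than in males (-0.69), where it averaged 2272 ± 386 CPM. In uterine Amhr2+ cells Vcan was the 1 substrate gene that was higher, at 2319 ± 363 against 1343 ± 73.2 CPM (0.79, adjusted p 0.00144), while 12 were lower, among them Col1a1 (-0.98) and Col1a2 (-1.75).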

How the data were processed

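The authors deposited 2 RNA-seq tables of whole-number counts, with 1 column per library and no normalization applied. Per the submitters' processing notes, reads were placed on mm10 and the tools included STAR 2.5, featureCounts of Subread 1.5.0-p1, Bowtie 1.2, SAMtools 1.3.1, Picard, bedtools 2.24.0 and MACS2 2.1.1; options, annotation and the use of strand in counting are not given in the sources used here. Per the labels' protocols, fetal libraries were made from 250 ng RNA with a kit that does not mark strand, and uterine libraries with a stranded kit, so the tables were normalized and fitted separately and no level was compared between them by a test. Members that overlap other genes are uncertain to that extent: Timp1 (Syn1), Timp2 (Cep295nl), Timp3 (Syn3), Timp4 (Syn2), Adamts7 (Tbc1d2b), Mmp19 (Tmem198b), Mmp12 with Mmp1b, and Adamts2, Adamts3, Adamts8, Adamts9, Adamts16, Adamts17, Adamtsl3, Mmp7, Mmp20, Mmp24 and Mmp28 with predicted or clone-named loci. The deposited ATAC-seq peaks are 1 list of positions for all 8 samples.

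Counts were tested with edgeR 4.0.16 in R 4.3.3: filterByExpr, TMM, robust quasi-likelihood fits, Benjamini-Hochberg adjustment over all genes tested and a threshold of 0.05, with 4 fetal groups (12 libraries) in 1 model and 2 uterine groups (6 libraries) in another. The scripts were tested on simulated data. CPM use the TMM-scaled library size; intervals and floors cover counting error only. Exon lengths are from GENCODE vM21 and promoters from RefSeq, both on GRCm38. A standard error (SE) is the size of a log2 fold change divided by the root of the F statistic. Counting noise did not account for the spread between any 2 replicates (chi-square per degree of freedom 3.60 to 91.0).

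The members and lists were chosen with earlier results of these data known. Members given in full passed the threshold, reached 5 CPM on average in the group with the higher level and had groups that did not overlap, at most 12 a comparison; a list of the main inhibitors and proteases could be named whatever their values, and up to 4 companions in each direction. Alternatives were DESeq2 1.42.0, scaling by library size only, no low-count filter, the replicate number as a block, only the compared groups, and each replicate left out. Same-numbered E16.5 libraries of the sexes deviated together (r 0.284, 0.115 and 0.396), which was taken as pairing from the data, since the labels give no shared litter. Female replicate 2 and male replicate 1 at E16.5, of different numbers, had a similar r of 0.108. In the other comparisons not every same-numbered pair exceeded 0.1.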

Additional observations from a re-analysis of the deposited data

Results flagged for a closer look

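The sex difference of 14 members was not the same at E14.5 and E16.5 by the interaction test of edgeR (adjusted p under 0.05); values are the female-over-male log2 fold change at E16.5 minus that at E14.5. It was negative for Mmp28 (-2.25), Adamts16 (-1.37), Timp3 (-1.16), Adamts20 (-1.07), Adamts9 (-0.71), Adamts8 (-0.68) and Adamts7 (-0.37). It was positive for Adamts17 (1.24), Mmp17 (0.94), Mmp19 (0.91), Adamtsl5 (0.68), Adamts1 (0.67), Mmp15 (0.59) and Mmp16 (0.59). Mmp19 lost its call without the low-count filter (adjusted p 0.0645) and when any of 7 libraries was left out (adjusted p 0.0675 to 0.125). Adamts20 passed at both ages with opposite signs, and Mmp28 passed at E16.5 (-1.90) and not at E14.5 (0.34, adjusted p 0.294). All groups had 3 libraries, so no library was tested as lying apart from its group.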

How the results depend on the processing

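Of 161 tests of named members, 120 were called, and over their alternatives and those of the tests not called 1742 of 1875 values stayed on their side of the threshold, 117 lost and 16 gained the call, and none of the called values reversed. Of the 41 not called, 9 changed sign under some alternative. Members called ranged, with each replicate left out, from 6 to 9 (sex at E14.5), 17 to 24 (sex at E16.5), 24 to 29 (age in females), 20 to 25 (age in males), 12 to 21 (interaction) and 21 to 25 (uterus). The shares of all genes called in these fits were, in that order, 3.03 to 9.2%, 19.8 to 31.5%, 28.8 to 35.4%, 18.4 to 21.5%, 7.32 to 14.7% and 11.8 to 21.2%. Calls kept under all alternatives run were 6 of 8, 16 of 20, 24 of 29, 17 of 25, 11 of 14 and 20 of 24 in that order, and this was not counted over all genes.

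With the replicate number as a block, 24 members were called between the sexes at E16.5, including all 20 called without it; the counts were 10 at E14.5, 27 and 22 with age in females and males, 20 for the interaction and 27 in the uterus. With the block the shares of all genes called were 33% (sex at E16.5), 8.85% (E14.5), 35% and 19.4% (age in females and males) and 29.2% (uterus), and for the interaction 2592 of 17858 genes were called, against 1790 without the block. The pairing of numbers rests on the data at E16.5. At E14.5 it was weak and under the limit of 0.1 (r 0.0725, 0.0504 and 0.0508). Pairs of different numbers were all negative there (r -0.0434 to -0.00731). As deviations from a group's mean cancel out within the group, those negative values are no separate evidence of pairing. Blocked calls other than those at E16.5 are therefore given as counts only.

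Sums in plain CPM in place of CPM per kb moved the ratio of summed Timp to summed Mmp to 0.686 and 0.809 in E14.5 females and males, 0.423 and 0.7275 in E16.5 females and males, and 0.568 and 0.557 in uterine Amhr2+ and Gli1+ cells. The female ratio stayed below the male one at both ages. The uterine means no longer differed beyond their spread (SD 0.0208 in Amhr2+ and 0.03175 in Gli1+ cells). A peak over the start itself was found for 30 members (58.8%, against 46.5% of all genes). Within 1 kb, 32 had a peak of at least the median width (62.7%, against 48.1%). The companion and substrate lists were not refitted under the alternatives. Depth limits the chromosome 9 cluster, where no library exceeded 17 counts for any gene.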
